A study of Mus musculus with 11 samples.

Results

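Cndp1, Cndp2, Sucnr1, Cckar and Ang, the genes of 2 carnosine dipeptidases, 2 receptors and the ribonuclease angiogenin, are 5 of the 25677 genes listed for these mouse kidneys. They were chosen from measured values: Cndp1, Ang, Sucnr1 and Cckar had the smallest p between DNase and Lpr among genes with a mean of at least 10 CPM (counts scaled to a common library total), and Cndp2 was added as the neighbouring dipeptidase gene. The differences between DNase and Lpr are therefore described without a test. RNA was sequenced from kidneys of female mice aged 21 weeks, 1 library for each mouse. Ctr were 3 C57BL/6J mice (labelled C57B6), Lpr were 4 untreated MRL/lpr mice and DNase were 4 MRL/lpr mice treated with DNase I, an enzyme that digests extracellular DNA. All 8 MRL/lpr mice carry the lpr mutation in the Fas gene, and the study treated their lupus-like kidney disease to ask whether removing extracellular DNA relieves the kidney. Ctr differ from them in strain as well as disease, and both cannot be told apart.

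Carnosine is a dipeptide of beta-alanine and histidine. CNDP1, the carnosinase of human serum and of the rodent kidney, and CNDP2, a cytosolic and less selective dipeptidase, split small peptides into amino acids that the tubule can use or return to blood. SUCNR1 is the receptor for extracellular succinate, CCKAR is the cholecystokinin receptor best known from pancreas and gallbladder, and angiogenin is a secreted ribonuclease of the RNase A family that cuts tRNA and is known for promoting vessel growth. The proximal tubule, where filtered peptides and organic acids are taken back, makes up most of the kidney cortex.

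Libraries held between 33469858 and 38460873 counts, and all 5 members passed the filter on low counts in each comparison. Lpr replicate 3 stood apart: the slope of its log2 level on log2 gene length was -0.393, against -0.0427 to 0.0767 in the other libraries, so results that rest on it are given with and without it. The 10 common proximal tubule markers, with Lrp2, Slc34a1 and Aqp1 among them, were all detected in each group. Their summed level was 19733 to 21279 CPM in Ctr, 11682 to 18814 CPM in Lpr and 14499 to 17699 CPM in DNase. The libraries are of whole kidney, so they do not show which cells carry a member's RNA, and fewer cells of a type and less RNA per cell cannot be told apart.

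Per length, in FPKM (fragments scaled to gene length and library total), Cndp2 was the most abundant member in every library, from 77.1 to 168 FPKM. Cckar lay between 9.37 and 21.8 FPKM, Sucnr1 between 7.30 and 16.3 FPKM and Cndp1 between 4.42 and 16.9 FPKM, so these ranges overlapped. Ang ranged most, from 0.70 to 15.8 FPKM. The mean FPKM of Ang in Ctr was the lowest of the members, at 0.808 ± 0.107 (SD, n = 3), and in Lpr it was 13.0 ± 2.70 (SD, n = 4), above Cndp1, Sucnr1 and Cckar there.

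**Figure D1:**
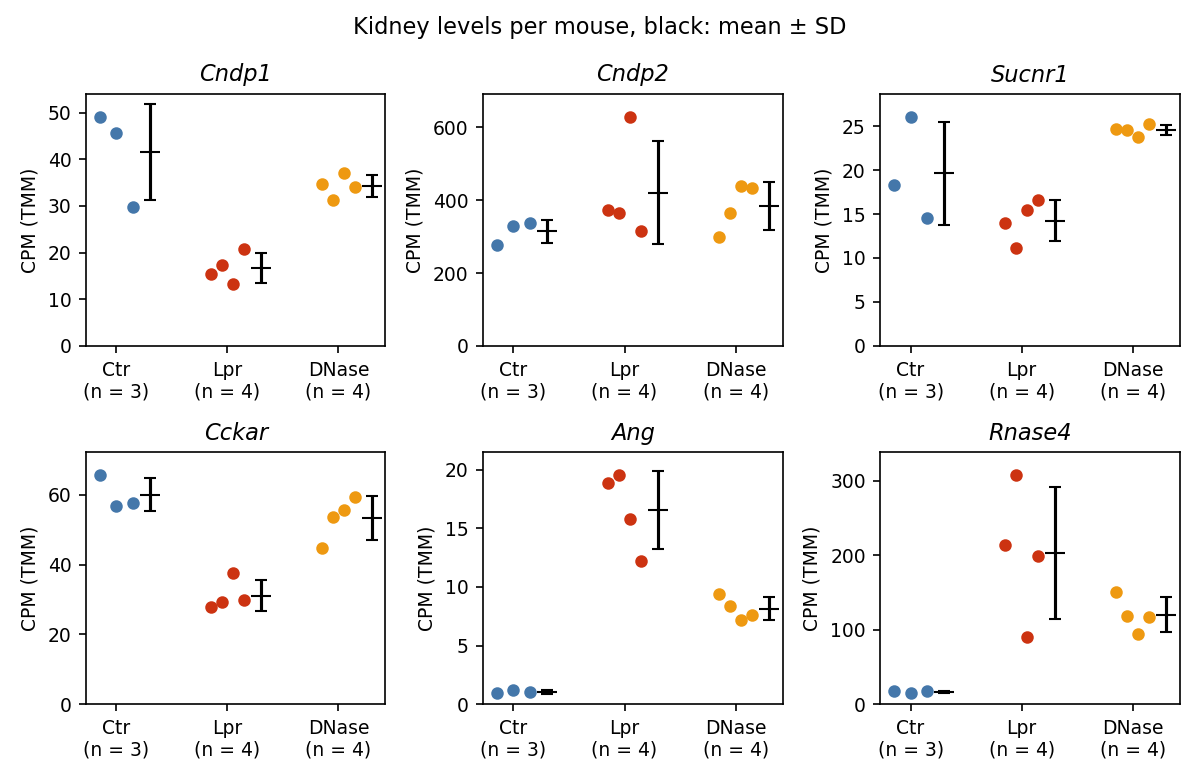
Levels of the 5 members and of Rnase4 in each kidney, in CPM scaled by TMM, with 1 point per mouse and the group mean ± SD in black (3 Ctr, 4 Lpr, 4 DNase). Cndp1 and Cckar lie lower in Lpr than in both other groups, Cndp2 overlaps throughout, and Ang lies near 1 CPM in Ctr and above 7 CPM in every MRL/lpr kidney. The gap between Lpr and DNase is what chose Cndp1, Sucnr1, Cckar and Ang.

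Among the dipeptidases, Cndp1 was lower in MRL/lpr kidneys than in Ctr, 1.73-fold on average, while Cndp2 was not called in any comparison with Ctr. Cndp1 had 49.1, 45.7 and 29.9 CPM in Ctr, 15.5, 17.3, 13.3 and 20.8 CPM in Lpr, and 34.8, 31.2, 37.1 and 34.0 CPM in DNase. Every Lpr kidney lay below every other kidney, and the gap between Lpr and DNase is the difference that chose the gene. DNase lay within the range of Ctr, above Ctr replicate 3 and below the other controls. The order of the means was Ctr, DNase and Lpr, with 41.6 ± 10.3 (SD, n = 3), 34.3 ± 2.44 (SD, n = 4) and 16.7 ± 3.16 CPM (SD, n = 4). The neighbours Ctr and DNase did not differ beyond the spread of Ctr, which Ctr replicate 3 widened.

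The comparison of all 8 MRL/lpr kidneys with Ctr takes the mean of Lpr and DNase. The difference between those groups is not part of it, but the same 8 libraries and their spread between mice, which entered the p that chose the members, also enter this fit. In it edgeR, at an adjusted p under 0.05, called 10.3% of 16500 genes higher and 5.61% lower. Cndp1 had a log2 fold change of -0.79 (SE 0.162, adjusted p = 0.00493), and it was called with any 1 library left out. The Lpr and DNase libraries chose Cndp1, Sucnr1, Cckar and Ang, so the separate differences of Lpr and of DNase from Ctr, which share the Ctr libraries, are given for these genes as values without a test. Cndp1 was 2.46-fold lower in Lpr than in Ctr, a log2 fold change of -1.30, with groups that did not overlap, as in 11.4% of genes in that direction. Its log2 fold change in DNase was -0.28, and -0.47 without Ctr replicate 3, the control with the lowest Cndp1.

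The summed proximal tubule markers also lay lower in every MRL/lpr kidney than in Ctr, and Cndp1 was set against their sum, a scale added after the data were seen. Per 1000 CPM of the 10 markers, Cndp1 had 1.51 to 2.42 CPM in Ctr, 0.825 to 1.28 CPM in Lpr and 1.76 to 2.56 CPM in DNase. With its libraries scaled to the marker counts, edgeR gave Cndp1 a log2 fold change of -0.41 between MRL/lpr and Ctr (adjusted p = 0.127), and -0.41 without Lpr replicate 3 (adjusted p = 0.0799). This scaling moved the median of all 16500 genes to 0.40 and gave 3237 calls higher and 378 lower. In an exact permutation test of 165 splits, two-sided, the difference had p = 0.0667 for log2 CPM and p = 0.291 relative to the markers, so neither the scale nor the exact test kept the edgeR call. Of the 10 markers 1 was called, the gluconeogenic enzyme gene Pck1, which was lower by edgeR (log2 fold change -1.03, adjusted p = 0.00876), and the median of the list was -0.31 against 0.01 over all genes tested.

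Cndp2, the abundant cytosolic enzyme's gene, had 278, 330 and 337 CPM in Ctr, 374, 364, 629 and 315 CPM in Lpr, and 298, 364, 438 and 434 CPM in DNase. The groups overlapped, and the highest value was that of Lpr replicate 3. Its log2 fold change between MRL/lpr and Ctr was 0.36 (adjusted p = 0.329, 95% interval -0.11 to 0.82, edgeR), and 0.21 without that library. Between Lpr and Ctr it was 0.43 (adjusted p = 0.399), and between DNase and Ctr 0.29 (adjusted p = 0.206), which became 0.39 with an adjusted p of 0.0387 without DNase replicate 1. Scaled to the proximal tubule markers, which moved all genes upward as above, Cndp2 had a log2 fold change of 0.77 (adjusted p = 0.0835, edgeR), and without Lpr replicate 3 it had 0.54 (adjusted p = 0.0175). Relative to the markers, the exact permutation test gave p = 0.0485, and p = 0.0167 without that library.

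Cndp1 and Cndp2 lie next to each other on chromosome 18, on the same strand and 17230 bases apart, and no 100-base window of either transcript set was shared with another gene. As a percentage of Cndp2 in FPKM, Cndp1 was 22.0, 17.3 and 11.1 in Ctr, 5.23, 5.97, 2.68 and 8.29 in Lpr, and 14.6, 10.7, 10.6 and 9.78 in DNase. The Lpr kidneys held the 4 lowest ratios, and DNase overlapped Ctr. The gap between Lpr and DNase follows from the difference that chose Cndp1, and nothing is read from it. The mean log2 ratio differed by -1.09 between MRL/lpr and Ctr, and the difference did not pass the threshold (exact permutation test over 165 splits, two-sided, p = 0.0606, where the smallest possible p is 0.00606). It passed with a pseudocount of 1 (p = 0.0485), and without DNase replicate 1 (p = 0.025) or Lpr replicate 3 (p = 0.0417), each by an exact permutation test.

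**Figure D2:**
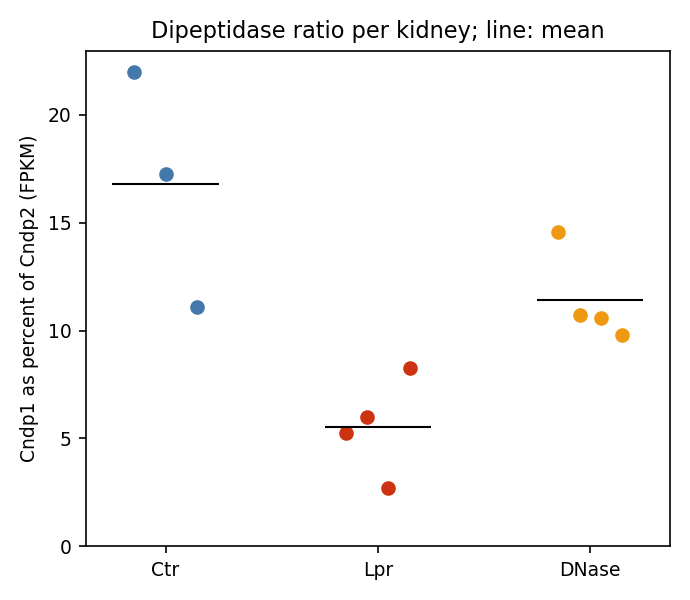
Cndp1 as a percentage of Cndp2, both in FPKM, in each kidney, with 1 point per mouse and a line at the group mean. The 4 Lpr kidneys lie between 2.68 and 8.29%, below the lowest DNase kidney at 9.78% and the lowest Ctr kidney at 11.1%. The gap between Lpr and DNase follows from the difference that chose Cndp1.

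Of the receptors, Cckar was lower in MRL/lpr kidneys and Sucnr1 was not called. Cckar (chr5:53698485-53707704, minus strand, GRCm38.p6) had 65.7, 56.9 and 57.8 CPM in Ctr, 27.8, 29.2, 37.7 and 29.8 CPM in Lpr, and 44.7, 53.7, 55.7 and 59.5 CPM in DNase. All Lpr kidneys lay below all Ctr kidneys, as in 11.4% of genes in that direction, while DNase and Ctr overlapped. The Lpr kidneys also lay below all DNase kidneys, which is the difference that chose the gene. The order of means was again Ctr, DNase and Lpr, with 60.1 ± 4.84 (SD, n = 3), 53.4 ± 6.28 (SD, n = 4) and 31.1 ± 4.44 CPM (SD, n = 4).

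Between MRL/lpr and Ctr, Cckar was 1.47-fold lower (log2 fold change -0.56, SE 0.126, adjusted p = 0.00954 from edgeR). Without Ctr replicate 1, the control with the most Cckar, the log2 fold change was -0.49 and the adjusted p 0.0699. As values without a test, since the same libraries chose the gene, Cckar was 1.91-fold lower in Lpr than in Ctr, and its log2 fold change in DNase was -0.17. With libraries scaled to the proximal tubule markers, edgeR gave -0.16 between MRL/lpr and Ctr (adjusted p = 0.557), and -0.29 without Lpr replicate 3 (adjusted p = 0.0937). The exact permutation test gave p = 0.0667 for log2 CPM and p = 0.539 relative to the markers, so here too neither change kept the call. Cckar then lay at 2.67 to 3.24 CPM per 1000 CPM of markers in Ctr, 1.48 to 3.23 CPM in Lpr and 2.80 to 3.84 CPM in DNase. The top of the Lpr range was Lpr replicate 3, and the other Lpr kidneys lay below every Ctr kidney.

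Sucnr1 (chr3:60081869-60087566, plus strand, GRCm38.p6) had 18.3, 26.0 and 14.5 CPM in Ctr, 14.0, 11.1, 15.4 and 16.5 CPM in Lpr, and 24.7, 24.5, 23.8 and 25.2 CPM in DNase. The DNase kidneys were close together, with an SD of 0.579 CPM around 24.6 CPM (n = 4). They lay above all Lpr kidneys, as in 2.08% of genes, and this difference chose the gene. Ctr had an SD of 5.88 CPM around 19.6 CPM (n = 3) and overlapped both groups. The log2 fold change between MRL/lpr and Ctr was -0.07 (adjusted p = 0.87, 95% interval -0.45 to 0.32, edgeR), and no direction is given, since it turned to 0.04 on FPKM, to 0.19 without Ctr replicate 2 and to 0.33 when scaled to the proximal tubule markers. As values without a test, it was -0.45 in Lpr and 0.32 in DNase, and the last became 0.58 without Ctr replicate 2.

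**Figure D3:**
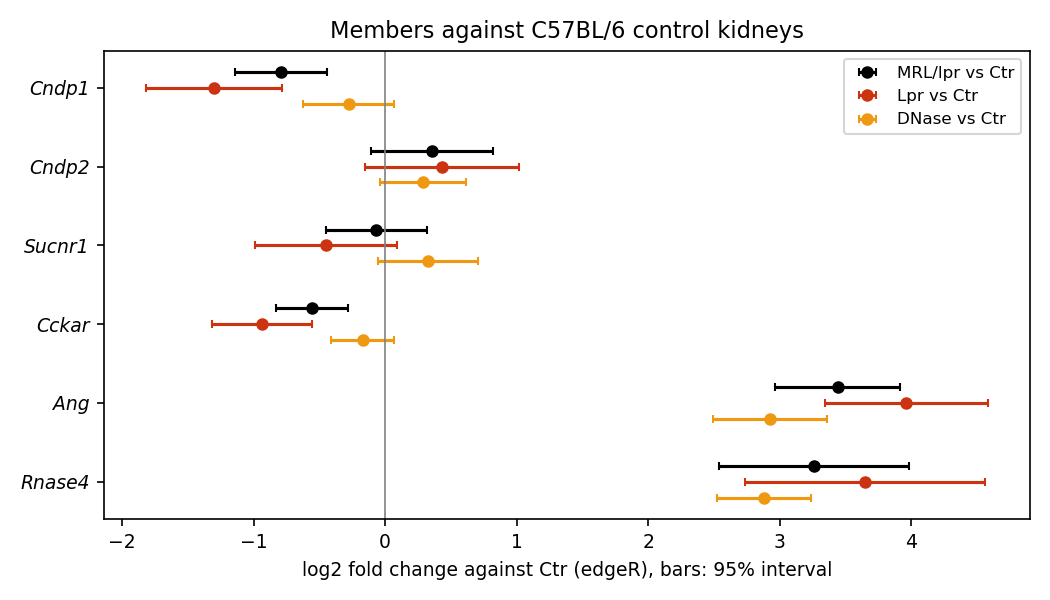
Log2 fold changes against Ctr from edgeR, with bars for the 95% interval, for the mean of all MRL/lpr kidneys (black), Lpr (red) and DNase (orange). Ang and Rnase4 lie near 3 to 4, the points of Cndp1 and Cckar lie below 0, and the MRL/lpr intervals of Cndp2 and Sucnr1 include 0. For Cndp1, Sucnr1, Cckar and Ang the bars of Lpr and of DNase are no test, since these libraries chose the genes.

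Ang was the member with the largest difference from Ctr. It had 0.917, 1.24 and 1.05 CPM in Ctr, from 34 to 39 counts per library. In Lpr it had 18.8, 19.5, 15.8 and 12.2 CPM, and in DNase 9.40, 8.37, 7.21 and 7.62 CPM. The 3 groups did not overlap, in the order Lpr, DNase and Ctr. Ang was 10.9-fold higher in MRL/lpr than in Ctr (log2 fold change 3.44, SE 0.217, adjusted p = 1.63e-06 from edgeR), with groups apart as in 11.5% of genes in that direction. This call held in every alternative run and with any 1 library left out. As values without a test, since the same libraries chose the gene, Ang was 15.6-fold higher in Lpr and 7.61-fold higher in DNase than in Ctr, with higher groups without overlap as in 14.2% and 18.2% of genes.

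The levels of immune and injury markers are given beside those of Ang. The 7 macrophage markers, all called higher in MRL/lpr, summed to 141 to 180 CPM in Ctr, 618 to 1256 CPM in Lpr and 504 to 940 CPM in DNase. The 6 T cell markers, also all called higher, summed to 4.97 to 6.86 CPM in Ctr, 74.9 to 153 CPM in Lpr and 73.3 to 118 CPM in DNase, with medians of 89.0 CPM in Lpr and 94.2 CPM in DNase. Of the 5 B and plasma cell markers 4 were called higher, and their median sum was 16.0 CPM in Ctr, 669 CPM in Lpr and 762 CPM in DNase. The sums of Lpr and DNase overlapped in the macrophage, T cell and B and plasma cell lists. Of 6 proximal tubule injury markers 3 were called higher, Havcr1, Lcn2 and Vcam1, and 3 were not, and the list summed to 1429 to 1811 CPM in Ctr, 2185 to 12114 CPM in Lpr and 1913 to 2710 CPM in DNase. No defining marker of these lists was at 0 in a group, and their part in the level of Ang was not tested.

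Ang (chr14:51091077-51102009, plus strand, GRCm38.p6) lies within the span of Rnase4 (chr14:51091077-51106151, plus strand), the gene of another secreted RNase A family enzyme, and in GENCODE M21 each gene has 2 transcripts. The first exons of Ang-202 (51091150 to 51091253) and Rnase4-201 (51091077 to 51091253) overlap, as do those of Ang-201 (51096000 to 51096473) and Rnase4-202 (51096359 to 51096473). Of 1202 exon bases of Ang in GENCODE M21, 219 or 18.2% also belong to Rnase4, and reads from them can be left out of both counts or assigned to either. The 250 bases before 2 of the annotated starts are printed because the 2 genes moved together, in lower case with the only match to the searched motifs in capitals. RefSeq lists the upstream window, chr14:51090827-51091076, for Ang and Rnase4. It lists the downstream window, chr14:51095750-51095999, for Rnase4, and a GENCODE transcript of Ang starts right after it. Cckar, Cndp1 and Cndp2 had no entry in the promoter table.
Upstream start: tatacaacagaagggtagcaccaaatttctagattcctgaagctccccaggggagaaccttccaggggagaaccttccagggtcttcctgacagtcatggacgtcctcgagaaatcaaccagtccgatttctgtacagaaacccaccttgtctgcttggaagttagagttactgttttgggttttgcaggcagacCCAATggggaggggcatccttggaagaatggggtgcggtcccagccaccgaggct
Downstream start: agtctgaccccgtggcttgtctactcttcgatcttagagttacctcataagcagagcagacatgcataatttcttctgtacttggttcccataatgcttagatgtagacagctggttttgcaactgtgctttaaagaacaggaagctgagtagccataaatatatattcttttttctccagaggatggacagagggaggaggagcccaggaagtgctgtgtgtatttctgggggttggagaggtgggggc
The capitals mark a CCAAT box, CCAAT on either strand, whose first base is at position -55 from the start, and 33.8% of 32817 mouse promoter windows hold one. Neither window held a TATA box (TATAAA), a GC box (GGGCGG), a STAT site (TTCNNNGAA) or an AP-1 site (TGANTCA), which 12.4%, 32.7%, 7.01% and 6.75% of windows hold. The motifs were chosen after the values were seen, both strands were searched, and a match is a description only.

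Rnase4 was more abundant than Ang and moved with it. It had 17.2, 14.5 and 17.1 CPM in Ctr, 214, 308, 90.8 and 199 CPM in Lpr, and 151, 119, 94.6 and 117 CPM in DNase. Every MRL/lpr kidney lay above every control, as in 11.5% of genes, and Lpr replicate 3 held the lowest of the 8. Rnase4 was 9.59-fold higher in MRL/lpr than in Ctr (log2 fold change 3.26, SE 0.332, adjusted p = 3.98e-05 from edgeR), 12.5-fold in Lpr (adjusted p = 0.00101) and 7.37-fold in DNase (adjusted p = 4.93e-06). As a percentage of Rnase4 in FPKM, Ang was 9.41, 14.6 and 10.6 in Ctr, 13.9, 9.99, 27.3 and 9.70 in Lpr, and 9.87, 11.1, 12.1 and 10.3 in DNase. The ratios overlapped, with Lpr replicate 3 far above the rest. The log2 ratio differed by 0.11 between MRL/lpr and Ctr (exact permutation test, two-sided, p = 0.77), by -0.06 without Lpr replicate 3 and by -0.03 without Ctr replicate 1. With FPKM + 1 it differed by -0.61 (exact permutation test, p = 0.0545), so no direction is given.

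**Figure D4:**
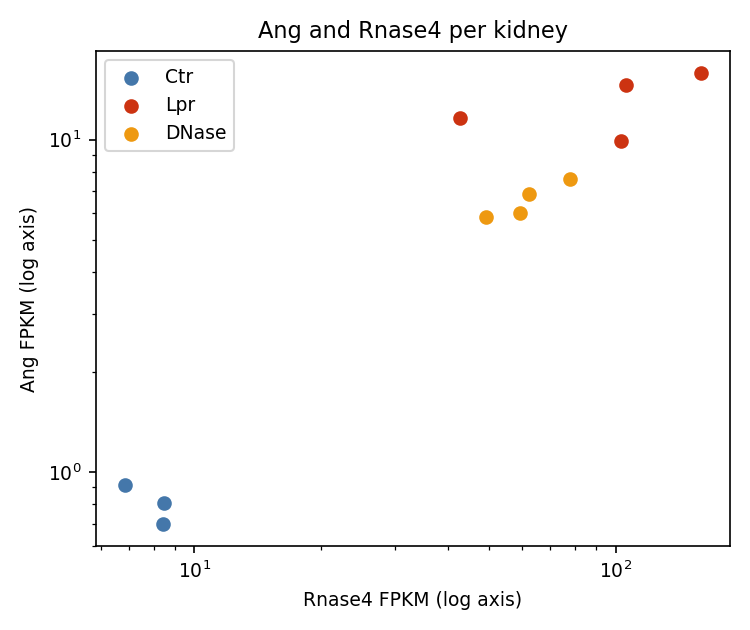
FPKM of Ang against FPKM of Rnase4 in each kidney, both on log axes, with 1 point per mouse colored by group. The 3 Ctr kidneys lie at the lower left below 1 FPKM of Ang, the MRL/lpr kidneys lie above 5 FPKM, and 1 Lpr kidney has less Rnase4 than the other Lpr kidneys.

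The difference between DNase and Lpr, which chose 4 members, is given as values only. Cndp1 was higher in DNase by 1.03 on the log2 scale, Sucnr1 by 0.78 and Cckar by 0.77, and Ang was lower, at -1.03. The 4 genes ranked 1, 7, 9 and 2 by p among 15832 genes tested, and 1 to 4 among those with a mean of at least 10 CPM. The gene just outside that choice was Hpd, a tyrosine breakdown enzyme, with a log2 fold change of 1.52 and rank 11 overall. Cndp2 ranked 9955, with a log2 fold change of -0.14 that turned to 0.12 without Lpr replicate 3. DNase and Lpr did not overlap for Cndp1, Sucnr1, Cckar and Ang, as in 2.08% of genes higher and 1.68% of genes lower in DNase, and nothing is read from this. Over all genes edgeR called 0 (0%) and DESeq2 called 17, and 886 genes (5.6%) had an unadjusted p under 0.05 with edgeR. No marker of the cell type lists was called between DNase and Lpr by edgeR, and some had an unadjusted p under 0.05. Among them were all 6 skeletal muscle markers, lower in DNase, at sums of 12.1 to 17.1 CPM in Lpr and 2.70 to 9.40 CPM in DNase. All 6 proximal tubule injury markers were lower in DNase, with a median of -1.41 on the log2 scale, and 5 had such a p. All 5 fibroblast and pericyte markers were lower, 3 with such a p, at sums of 353 to 614 CPM in Lpr and 260 to 474 CPM in DNase. All 5 B and plasma cell markers were higher, 2 with such a p, at sums of 154 to 720 CPM and 288 to 1020 CPM. All 7 macrophage markers were lower, 1 with such a p. Of 8 markers of the proximal tubule segment S3, 5 were higher and 3 lower, and 1 of the higher had such a p. Their part in these differences was not tested.

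Within the 8 MRL/lpr kidneys Cndp1, Sucnr1, Cckar and Ang varied together, which is a description, since 1 contrast chose them. Pearson's r of log2 CPM was 0.89 between Cndp1 and Sucnr1, 0.82 between Cndp1 and Cckar and 0.90 between Sucnr1 and Cckar. With Ang it was -0.93 for Cndp1, -0.96 for Sucnr1 and -0.92 for Cckar, over the same libraries and their shared scaling. For Cndp2 the r was -0.36 with Cndp1, -0.10 with Sucnr1, 0.20 with Cckar and 0.09 with Ang. Ang and Rnase4 had an r of 0.96 over 11 kidneys and 0.66 over the 8.

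Pearson's r over all 11 libraries takes in the difference between MRL/lpr and Ctr, where 11.5% of genes lay higher without overlap. Over the 8 MRL/lpr libraries it takes in the difference between DNase and Lpr, which chose Cndp1, Sucnr1, Cckar and Ang. Nearness by r is therefore a description only. Among 13266 other genes, those most like each member over all 11 libraries by Pearson's r were as follows. For Cndp1 these were Shpk (0.954), Slc22a4 (0.949) and Slc6a4 (0.949), and over the 8 MRL/lpr libraries Zfp346 (0.971), Kmo (0.964) and Rph3a (0.953). Cckar was most like Atp6v1g2 (0.955), Amt (0.946) and Ell3 (0.946), and over the 8 libraries like Hacl1 (0.967), Atp6v1g2 (0.951) and Bco2 (0.940). Hpd (0.934), Stk35os1 (0.928) and Kmo (0.917) were nearest to Sucnr1, and over the 8 libraries Prlr (0.960), Fgf9 (0.952) and Cyp2d12 (0.947). Ang was nearest to B2m (0.992), which encodes the light chain of MHC class I, to Tap2 (0.992), a peptide transporter of antigen presentation, and to Ifi47 (0.989), an interferon-induced GTPase. Within MRL/lpr its nearest were Nmi (0.965), Tent5a (0.965) and Arhgap8 (0.964). Cndp2 was nearest to Ydjc (0.951), G3bp1 (0.943) and Twf2 (0.942), and over the 8 libraries to Zfp688 (0.979), Gatd1 (0.978) and Slc25a17 (0.975).

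The pathways around the members were read from lists of 73 genes, of which 61 could be tested between MRL/lpr and Ctr. There 13 were called higher, 6 lower and 42 neither, and without Lpr replicate 3 these counts were 15 higher and 18 lower. The share of all genes called was 10.3% higher and 5.61% lower, as above, and 14.4% and 10.8% without Lpr replicate 3. With 1 library left out, the calls of Pepd, Xpnpep2, Slc13a3 and Slc15a2 held in 1, 2, 4 and 5 of 11 fits and that of Rnase2a in 2 of 8. Dpep1 and Hibch lost theirs without Ctr replicate 1 (adjusted p = 0.112 and 0.0562), Dpep1 and Mep1b without Ctr replicate 2 (0.108 and 0.057) and Pm20d1 without Ctr replicate 3 (0.0549), all by edgeR. Between Lpr and Ctr 9 were called higher and 2 lower of 60 tested, where 7.27% of all genes were called higher and 2.92% lower. Without Lpr replicate 3 these were 14 higher and 11 lower, where 11% of all genes were called higher and 6.79% lower. Without Ctr replicate 1, 2 or 3 the list counts were 5, 6 or 4 higher and 2 lower each. Between DNase and Ctr 13 were called higher and 9 lower of 60, where 13.1% of all genes were called higher and 8.61% lower.

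**Figure D5:**
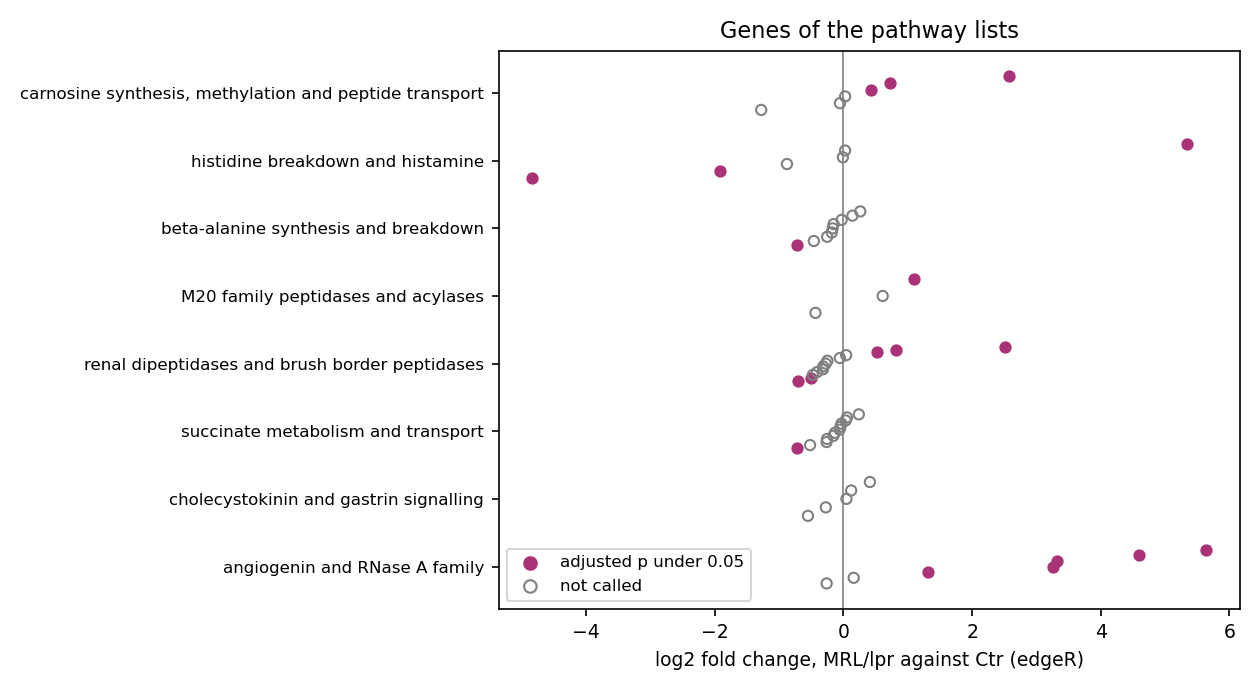
Log2 fold change between MRL/lpr and Ctr (edgeR) for each tested gene of the pathway lists, 1 row per list, with filled points for an adjusted p under 0.05. The RNase A family holds 5 filled points above 1, histidine breakdown holds points on both sides, and the cholecystokinin list holds none.

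Around carnosine, 3 of 4 peptide transporter genes were called higher in MRL/lpr, where 10.3% of all genes were. The enzymes of synthesis and methylation were not called. Of 6 genes 3 were called higher: Slc15a2, the high-affinity peptide transporter of the kidney (log2 fold change 0.43, adjusted p = 0.0396 from edgeR), Slc15a3 (2.57) and Slc15a4 (0.72), the last 2 being lysosomal histidine and peptide transporters also found in immune cells. With 1 library left out, the call of Slc15a2 held in 5 of 11 fits. Slc15a1, the low-affinity transporter, was not called (log2 fold change -1.28, adjusted p = 0.102). Carns1, which makes carnosine, lay at 2.10 CPM in Ctr, 2.00 CPM in Lpr and 2.28 CPM in DNase, and Carnmt1, which methylates it, at 19.5, 18.8 and 18.7 CPM. In histidine breakdown, Hal, the first enzyme, was called higher, at 0.211 CPM in Ctr, 11.0 CPM in Lpr and 7.02 CPM in DNase. The next 2 enzymes of that route were called lower, Uroc1 from 74.1 CPM in Ctr to 17.9 CPM in Lpr and 21.3 CPM in DNase, and Amdhd1 from 4.80 CPM to 0.206 and 0.131 CPM. Hal could pass the filter on low counts only through the MRL/lpr kidneys, so its call could only be higher. Amdhd1 did not pass the filter between DNase and Lpr, so it passed through Ctr, which favours a lower call. Ftcd, Hdc and Hnmt were not called.

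In beta-alanine metabolism 1 of 9 tested genes was called, Hibch, a valine breakdown enzyme, at -0.72. Among the peptidases related to CNDP2, Pm20d1, which makes and splits N-acyl amino acids, was called higher at 1.09, and Acy1 and Pm20d2 were not called. Of 13 renal peptidases Dpep1 (0.53), Dpep2 (2.52) and Xpnpep2 (0.81) were called higher and the meprin gene Mep1b (-0.71) and the prolidase gene Pepd (-0.51) lower. The abundant brush border enzyme genes Mep1a, Ggt1, Mme and Ace were not called, with log2 fold changes of -0.41, -0.31, 0.04 and -0.25.

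Around the receptors, of 12 tested genes of succinate metabolism and transport 1 was called lower, Slc13a3, the dicarboxylate transporter of the basolateral membrane, from 1021 CPM in Ctr to 538 CPM in Lpr and 718 CPM in DNase (log2 fold change -0.72, adjusted p = 0.0304 from edgeR). The subunit genes of succinate dehydrogenase, Sdha, Sdhb, Sdhc and Sdhd, had log2 fold changes of -0.26, -0.05, -0.26 and 0.04 and were not called. Between MRL/lpr and Ctr 0 of 5 tested cholecystokinin genes were called by edgeR and 0 had an unadjusted p under 0.05. Between DNase and Ctr edgeR called Plcb1, a phospholipase C of receptor signalling, higher (log2 fold change 0.47, adjusted p = 0.0154), and the G protein gene Gna11 had -0.19 (adjusted p = 0.0562). Cck, the ligand, had 15.2 CPM in Ctr, 13.2 CPM in Lpr and 8.13 CPM in DNase, and Cckbr, the other receptor, had 5 counts or fewer in every library.

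Of the 7 tested genes around angiogenin, the 5 ribonuclease genes beside Ang were called higher in MRL/lpr, where 10.3% of all genes were. Beside Rnase4 these were Rnase6, from 1.64 CPM in Ctr to 4.12 CPM in Lpr and 4.08 CPM in DNase, and Rnase1, with 3 counts or fewer in every control and 1.37 and 1.20 CPM in Lpr and DNase. Ear2, of the eosinophil group of ribonucleases, had 0.322, 3.72 and 2.88 CPM in the same order. Rnase2a had at most 1 count in a control and 1.72 CPM in Lpr and 0.253 CPM in DNase. Rnase1 and Rnase2a could pass the filter on low counts only through the MRL/lpr kidneys, so a call could only be higher. Rnase10, Ear1, Ear6 and Ear10 did not pass it and were not tested. Ear genes are close copies, and how their shared reads were counted is not given in the sources used here. Rnh1, the ribonuclease inhibitor that binds angiogenin, and Plxnb2, its receptor on cells, had log2 fold changes of 0.16 and -0.26 and were not called. Ang2, Ang4, Ang5 and Ang6 were not analysed here.

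Between DNase and Lpr 0 of 59 tested list genes were called by edgeR or DESeq2, and 3 had an unadjusted p under 0.05 with edgeR, against 5.6% of all genes. They were Dpys, of pyrimidine and beta-alanine metabolism, at 0.83 on the log2 scale (adjusted p = 0.82), Pm20d1 with 0.68 (adjusted p = 0.82) and Rnase4 with -0.75 (adjusted p = 0.854). Pm20d1 lay between 174 and 193 CPM in DNase and between 60.0 and 145 CPM in Lpr. The groups did not overlap, as in 2.08% of genes higher in DNase. Without Lpr replicate 3 the log2 fold change of Pm20d1 was 0.47. Without Lpr replicate 3, 12 list genes had an unadjusted p under 0.05, against 10.1% of all genes, and 0 were called.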

How the data were processed

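RNA-seq counts and FPKM values were analysed for kidneys of 3 Ctr, 4 Lpr and 4 DNase mice. The authors deposited raw counts of 100 bp paired-end reads per gene. The deposited FPKM values divide these counts by library total and gene length. The submitters' processing notes name fastp, HTSeq, DESeq2 and genome mm10, and the aligner and annotation are not given in the sources used here. All sample columns were used (0 unused).

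Groups were compared with edgeR 4.0.16 (filterByExpr, TMM, quasi-likelihood test) in R 4.3.3, with a call where p, adjusted after Benjamini and Hochberg over all genes tested, was under 0.05. The comparison of MRL/lpr with Ctr fits all 11 libraries and takes the mean of Lpr and DNase, and the pairs use their own libraries. The study's methods name DESeq2, run here as an alternative (1.42.0), with limma 3.58.1 on log2(FPKM + 1) and log2(FPKM + 0.1). Ratios are log2 of FPKM + 0.1, compared by exact permutation tests. Named genes were the members, the called genes and up to 4 abundant genes of each pathway list, those with an unadjusted p under 0.05 between DNase and Lpr, and the 3 genes nearest to each member by Pearson's r of log2 CPM (prior count 2). The members and lists were chosen with earlier results of these data known. Coordinates came from RefSeq for GRCm38.p6, the build of mm10.

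Libraries held 33469858 to 38460873 counts. Replicate pairs differed beyond sampling noise, at a chi-square of 17.5 to 393 per degree of freedom. The pairs with Lpr replicate 3 had 385 to 393, and all others at most 85.7. With 1 library for each mouse, the spread between mice and that between library preparations cannot be told apart, and together they set the precision. On simulated data edgeR recovered 63 of 100 genes changed by a log2 fold change of 1 between MRL/lpr and Ctr, with 5 false calls. Between DNase and Lpr it recovered 62 of 100, with 8 false calls. These shares hold for the simulated spread only. In the measured libraries edgeR called 0 genes between DNase and Lpr, where the smallest adjusted p was 0.82. Cndp1, first there by p, had a log2 fold change of 1.03. The 62 of 100 is therefore no estimate of the share that can be found in the measured DNase and Lpr libraries. Figures used matplotlib.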

Additional observations from a re-analysis of the deposited data

How the results depend on the processing

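The edgeR count of called genes was 2627 between MRL/lpr and Ctr, 1639 between Lpr and Ctr and 3493 between DNase and Ctr. With an absolute log2 fold change above 2 also required, these were 1020, 929 and 967, and Cndp1 and Cckar were then not called. DESeq2 gave 2516 between Lpr and Ctr and 17 between DNase and Lpr, against 0. All 11 libraries in 1 fit gave 2555 for Lpr and 1889 for DNase against Ctr. Leaving out 1 library gave 1776 to 4130 (the highest without Lpr replicate 3), 852 (without Ctr replicate 1) to 2824 (without Lpr replicate 3) and 2690 to 3425, and 0 between DNase and Lpr.

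The replicate numbers do not pair the mice: deviations of same-numbered samples correlated between -0.276 and 0.158. With the number as a replicate block the counts were 2156, 1268, 1869 and 0.

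Of 95 results of members between MRL/lpr and Ctr under alternative settings, 88 kept direction and call, 3 lost the call, 0 gained it and 4 turned direction. The turns were those of Sucnr1, to 0.0366 with limma on log2(FPKM + 1), filtered or not, 0.0368 on log2(FPKM + 0.1) and 0.188 without Ctr replicate 2, within -0.242 to 0.188 with 1 library left out. Settings added after the data were seen are not among the 95. In them Sucnr1 turned to 0.331 in edgeR scaled to the proximal tubule markers (0.236 without Lpr replicate 3), to 0.343 relative to them in the exact permutation test (0.320 without that library) and to 0.00419 for log2 CPM without that library. Cndp1 and Cckar lost their calls in each added setting, Cndp2 was called in some, and Ang and Rnase4 kept theirs. Cndp2 between DNase and Lpr turned to 0.122 without Lpr replicate 3, within a range of -0.258 to 0.122 with 1 library left out. The log2 ratio of Cndp1 to Cndp2, -1.09, was -1.02 with FPKM + 1 (exact p = 0.0485) and -1.36 to -0.863 with 1 library left out. The log2 ratio of Ang to Rnase4, 0.11, was -0.612 with FPKM + 1 (exact p = 0.0545), and -0.0567 (without Lpr replicate 3) to 0.292 with 1 library left out, with -0.0271 without Ctr replicate 1. The cause of these shifts was not tested.

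Of the 18 other pathway genes called in MRL/lpr, 9 were called in each alternative that kept the threshold, and Pepd, Xpnpep2, Slc13a3 and Slc15a2 in 5, 6, 8 and 10 of 18. With 3 controls, moderate changes can be missed.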
